A study of Mus musculus with 4 samples.

Results

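The genes described here are 5 members of the endothelin pathway, chosen by symbol: the ligand genes *Edn1* and *Edn3*, the converting enzyme gene *Ece1*, and the receptor genes *Ednra* and *Ednrb*, out of 30406 genes listed in all 4 single-cell libraries. Endothelins are short secreted peptides. They are cut from a larger precursor first by furin-type proteases and then by endothelin-converting enzyme 1, the product of *Ece1*. Endothelin 1, the product of *Edn1*, is a strong constrictor of blood and lymphatic vessels and comes classically from endothelial cells. The receptor encoded by *Ednra* sits on smooth muscle and drives contraction through Gq-type G proteins, phospholipase C and calcium release, whereas the receptor encoded by *Ednrb* is known for endothelial nitric oxide release, for clearance of the peptide and for neural crest development.

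The cells came from the popliteal lymphatic vessels and saphenous vein of mice of C57BL/6J background, with 3 mice pooled in each library. The tdTomato 1 and tdTomato 2 libraries held tdTomato-sorted cells of *Cspg4*-Cre;Ai9-tdTomato mice, in which a Cre driven by the *Cspg4* (NG2) promoter marks mural lineages, from male and female mice over 8 months old. The WT library (wild-type C57BL6) and the TNF-Tg library (which carries a human TNF transgene and develops inflammatory arthritis) were unlabelled high-scatter sorts of male mice at 9 months. Thus WT against TNF-Tg is 1 library against 1 library, has no replicate and was not tested. Intervals for single libraries are 95% exact Poisson, binomial or conditional binomial intervals and cover counting error only. The tdTomato libraries carry Cre and the reporter but no human TNF transgene, which is meant by the transgene below. The main TNF-Tg values are therefore given beside all 3 libraries without it where these held enough cells, although tdTomato cells differ by sort and in sex. The 4 experiments were run on separate days, and tdTomato 1 was sequenced on a NextSeq instrument and the others on a NovaSeq, so day cannot be told apart from genotype in any comparison of libraries. Sequencing gave 1504, 454, 5488 and 3391 cells for tdTomato 1, tdTomato 2, WT and TNF-Tg, with a median of 4932.5 to 12660 UMIs (unique molecular identifiers, counts of single RNA molecules) a cell, and at most 5 cell barcodes were shared by any pair of libraries.

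Cells were gated by marker genes, none of which is an endothelin gene. Stromal cells carrying *Myoc*, *Pi16* and *Fndc1*, genes that the study ties to lymphatic muscle cells (LMCs), are called Pi16-high stromal cells here (784, 116, 1512 and 534 cells in tdTomato 1, tdTomato 2, WT and TNF-Tg). Those carrying *Cxcl14*, *Mgp* and *Gdf10*, tied to vascular smooth muscle cells (VSMCs), are called Cxcl14-high (152, 87, 466 and 416 cells). The muscle names were not kept because the defining contractile genes were absent or nearly so. In the 8 sums of these types by library, *Acta2* had at most 4.98 CPM (UMIs of a gene per 1000000 UMIs of the same cells), *Myh11* at most 0.697, *Tagln* at most 1.58 and *Cnn1* at most 0.0412. The fibroblast receptor gene *Pdgfra* had 413 to 674. Desmin (*Des*) had 36.1, 7.73, 35.1 and 28.0 in Pi16-high cells and 13.9, 4.46, 1.31 and 4.52 in Cxcl14-high cells, in the order above. The study itself reported limited *Acta2*, *Myh11* and *Tagln* RNA. It based the muscle names on *Cald1*, *Tpm1* and *Pdgfrb* RNA, muscle-related transcription factors, lymphangiogenic and angiogenic factors, sorting and reporter mice. It told VSMCs from LMCs by higher *Cst3*, *Mgp* and *Bgn* and lower *Ackr3*. Myofibroblasts of nearby tissue could not be completely excluded in the study. Macrophages fell into resident macrophages carrying *Lyve1*, *Cd209f*, *Cd163*, *F13a1* and *Folr2* (13, 41, 1429 and 251 cells in the same order) and Ccr2 macrophages without *Lyve1* or *Cd209f* UMIs (8, 6, 203 and 130 cells). Stromal cells within 0.5 score units of the border between the stromal types numbered 235 in tdTomato 1, 80 in tdTomato 2, 428 in WT and 330 in TNF-Tg.

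The mouse endothelin peptides are coded by closely similar stretches, shown because the results turn on which of these genes is used. The 63 bases (21 codons) below code for the mature peptide and lie in exon 2 of 5 in each gene, on the plus strand, in GENCODE M21 transcripts of build GRCm38 (mm10). The 4 cysteine codons that form the disulfide bridges of the peptide are in capitals.
Edn1, chr13:42303649-42303711: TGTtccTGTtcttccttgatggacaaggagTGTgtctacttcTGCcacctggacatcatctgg
Edn2, chr4:120161951-120162013: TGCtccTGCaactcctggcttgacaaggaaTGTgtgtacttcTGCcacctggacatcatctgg
Edn3, chr2:174761749-174761811: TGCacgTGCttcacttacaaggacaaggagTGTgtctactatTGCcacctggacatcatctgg
The *Edn1* stretch shared 53 of 63 bases with *Edn2* and 50 with *Edn3*, and *Edn2* and *Edn3* shared 48. Of these 3 genes only *Edn1* was measured in quantity, with 9112 UMIs over all libraries. *Edn2*, which is not a member, had 0 UMIs and *Edn3* had 4.

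The *Edn1* gene (ENSMUSG00000021367) lies at chr13:42301476-42307990 and overlaps the antisense gene *Gm47118*. *Ece1* (ENSMUSG00000057530) lies at chr4:137862237-137965229 on the plus strand and overlaps the antisense gene *Gm13012*. *Ednra* (ENSMUSG00000031616) is on the minus strand at chr8:77663031-77724464, where the noncoding gene *4933431K23Rik* overlaps it on the other strand. *Ednrb* (ENSMUSG00000022122) is on the minus strand at chr14:103814625-103844402, and *Edn3* (ENSMUSG00000027524) on the plus strand at chr2:174760619-174784042, both without an overlapping gene.

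Ligand RNA came from Pi16-high stromal cells and from the few endothelial cells. Pi16-high cells held 79.4% of all *Edn1* UMIs in tdTomato 1, 75.6% in tdTomato 2, 94.6% in WT and 88.9% in TNF-Tg, while they made up 52.1%, 25.6%, 27.6% and 15.7% of the cells. Their *Edn1* level was 83.6 CPM (77.8 to 89.7) in tdTomato 1, 48.0 (32.6 to 68.1) in tdTomato 2, 291 (285 to 298) in WT and 74.7 (68.5 to 81.2) in TNF-Tg. Cxcl14-high cells had 1.39, 0, 3.50 and 0.679 CPM in the same order, from 2, 0, 16 and 3 UMIs. In every library the Pi16-high level was above the Cxcl14-high level, and the stromal cells that fell between the gates had 6.31, 0, 34.9 and 12.0 CPM.

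The difference between the stromal types was tested over the 4 libraries with edgeR's quasi-likelihood test on counts summed per type and library, with library as a block. *Edn1* was higher in Pi16-high than in Cxcl14-high cells by 6.33 ± 0.27 on the log2 scale (SE), an 80.2-fold difference (edgeR adjusted p = 1.3e-09). The size depended on the gate, with a log2 difference of 9.59 under stricter gates. Each library pooled mice, so the test measures the spread between libraries and not between mice, and in sums of cells more positive cells and more RNA per cell cannot be told apart. In this fit 7.26% of 11926 genes were higher in Pi16-high cells and 7.55% lower at an adjusted p under 0.05. *Ednra* went the other way, as described below, and *Ece1* and *Ednrb* did not pass the test.

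**Figure D1:**
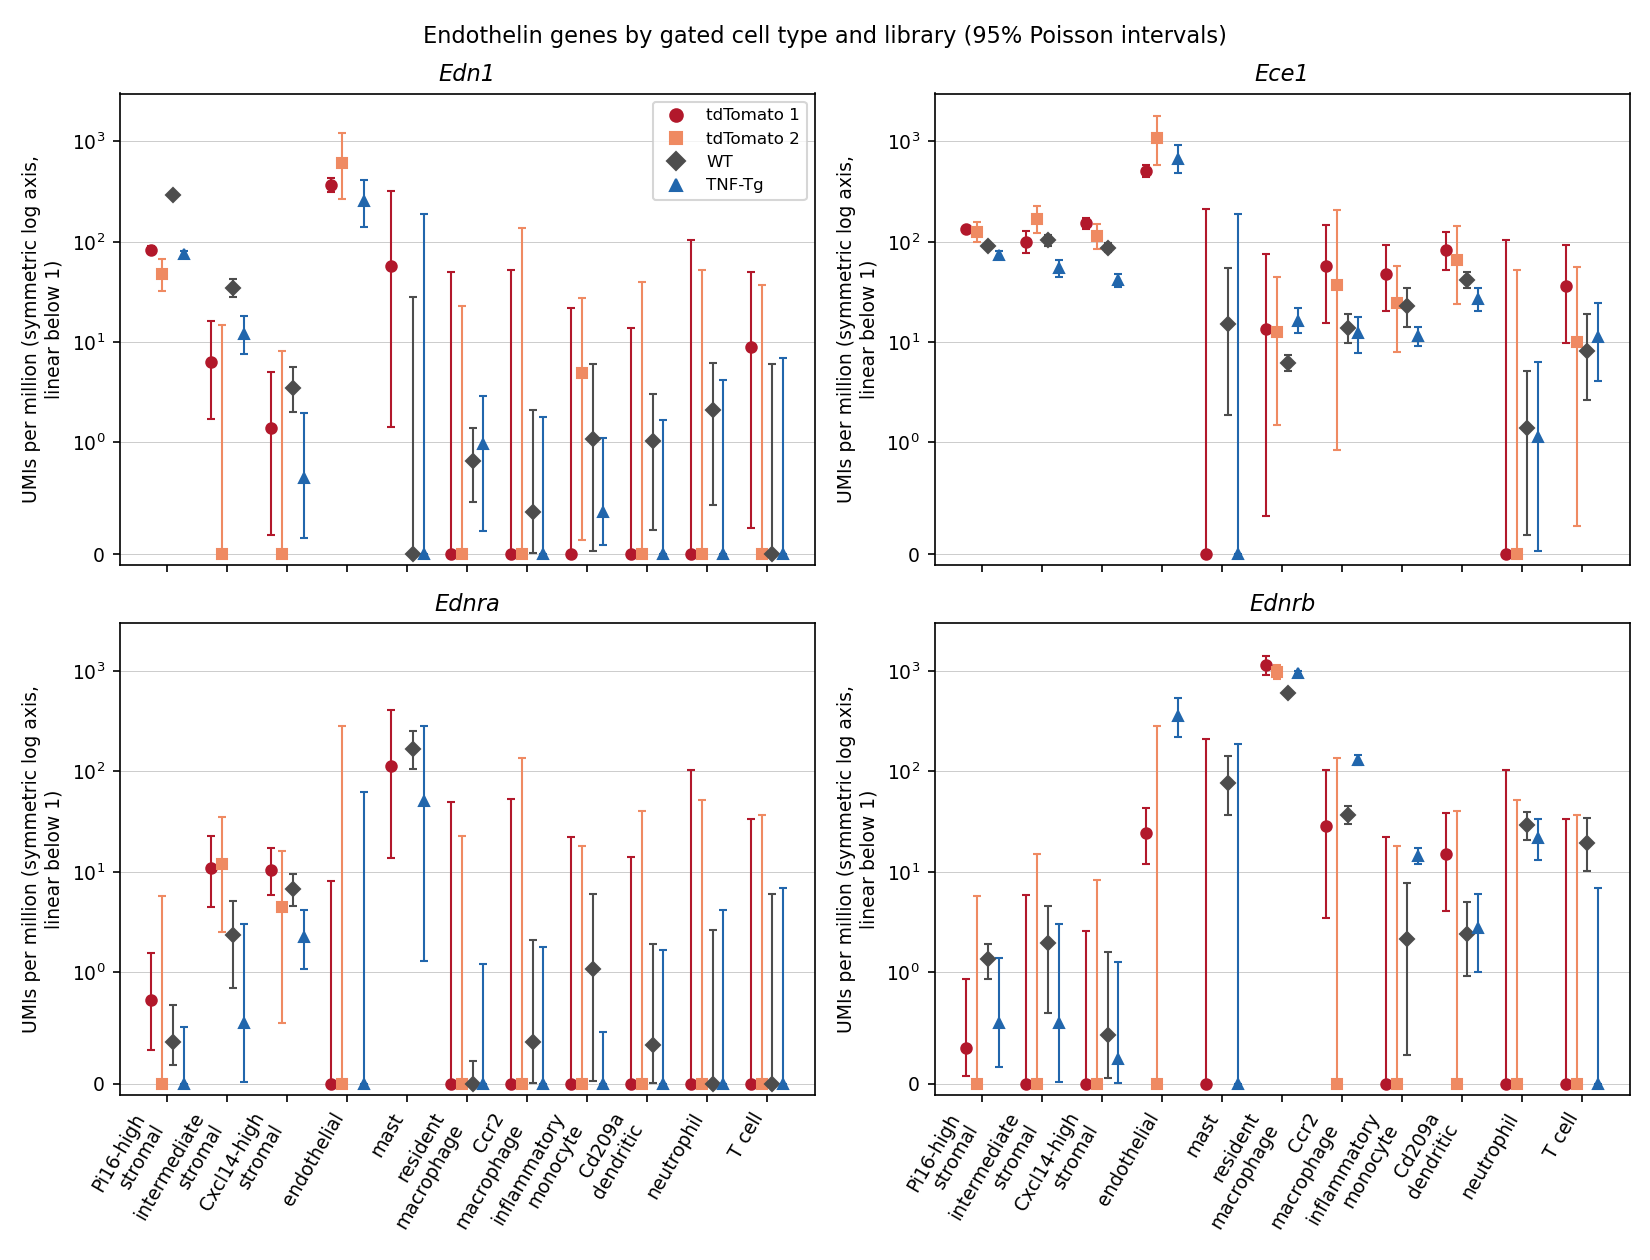
CPM of *Edn1*, *Ece1*, *Ednra* and *Ednrb* (vertical, symmetric log axes, linear below 1) in gated cell types (horizontal) of each library, for sums of at least 6 cells, with 95% Poisson intervals. *Edn1* is high in Pi16-high stromal and endothelial cells, *Ece1* in all stromal and endothelial cells, *Ednrb* in resident macrophages, and the highest *Ednra* levels are in mast cells, from few UMIs.

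*Edn1* was also graded among stromal cells. When stromal cells were binned by the score of the *Myoc*, *Pi16* and *Fndc1* list minus that of the *Cxcl14*, *Mgp* and *Gdf10* list, *Edn1* in WT was 1.26 CPM in the bin from -3 to -2 and 62.0 from 0 to 1. It was 199 from 1 to 2, 293 from 2 to 3 and 552 from 3 to 4. In TNF-Tg the levels in the same bins were 0, 11.6, 47.4, 135 and 118. In tdTomato 1 they were 0, 4.17, 27.2, 94.3 and 128. The lowest and highest bins of each library thus lay far apart, and WT was above the other 3 libraries in each of the 4 bins above 0. Within these bins TNF-Tg and tdTomato 1 differed less from each other than either did from WT.

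**Figure D2:**
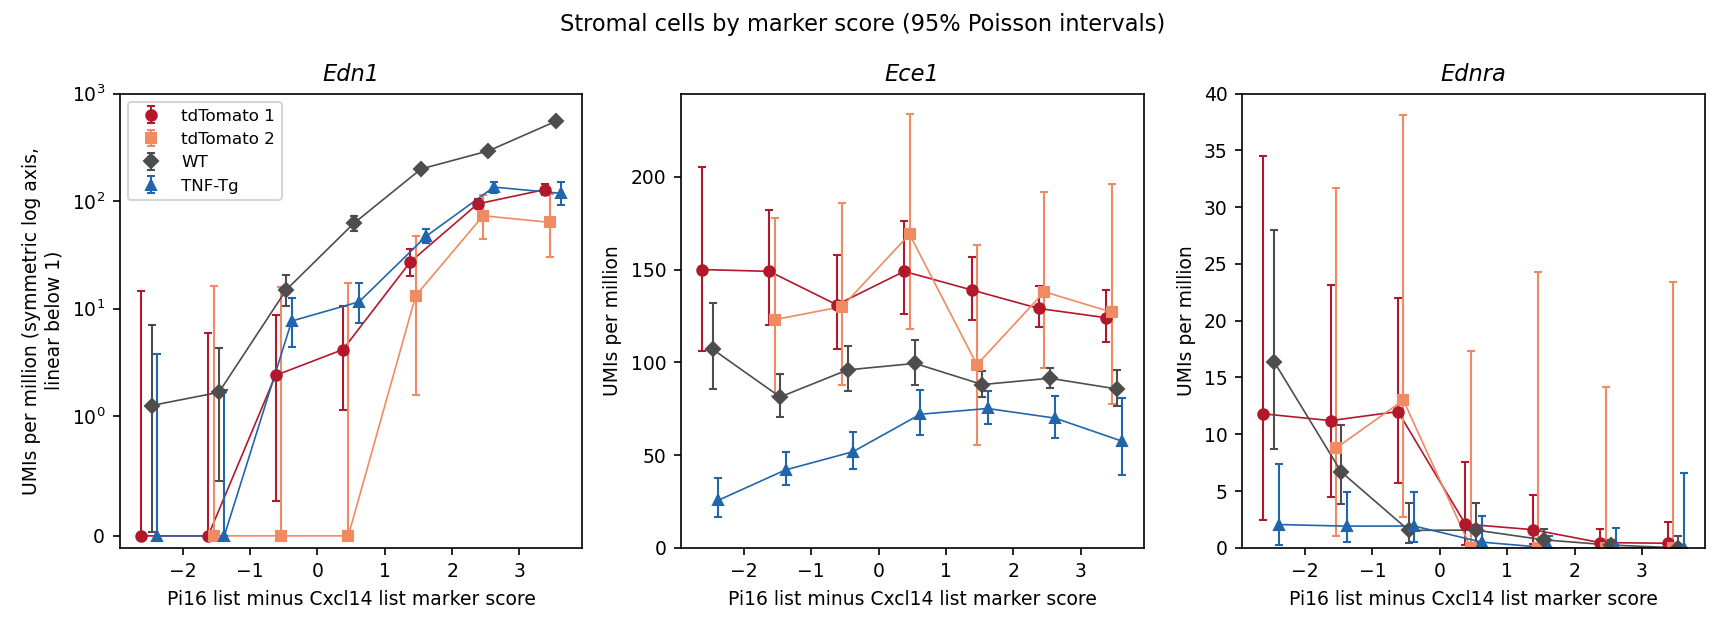
CPM of *Edn1* (symmetric log axis, linear below 1), *Ece1* and *Ednra* (linear axes from 0) in stromal cells binned by the Pi16 list score minus the Cxcl14 list score, 1 line a library, with 95% Poisson intervals and at least 20 cells a bin. *Edn1* climbs to 552 in WT and to 128 in tdTomato 1. *Ece1* is lowest in TNF-Tg in every bin, where it goes from 25.6 in the lowest bin to 75.1 in the bin from 1 to 2. In WT *Ednra* lies at the Cxcl14 end.

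At the level of single cells, 66.6% of Pi16-high cells in WT had an *Edn1* UMI, against 37.8% in TNF-Tg, 23.9% in tdTomato 1 and 9.48% in tdTomato 2. With each cell thinned to 3000 UMIs, which leaves out shallower cells, the share in WT was between 39.5% and 44.6% (its interval), and those in TNF-Tg, tdTomato 1 and tdTomato 2 were 17.2%, 12.8% and 4.71%. The same thinned share in Cxcl14-high cells was 1.30% in WT, 0.952% in tdTomato 1 and 0% in the others. In resident macrophages of WT it was 0.144%. Cells with an *Edn1* UMI carried on average 7.02 of them in WT, 2.70 in TNF-Tg, 4.18 in tdTomato 1 and 2.82 in tdTomato 2. In WT 14.9% of Pi16-high cells had 10 or more *Edn1* UMIs and the highest cell had 59, whereas in TNF-Tg 1.69% did and the highest had 21. The tenth of cells with the most *Edn1* held 48.4% of its UMIs in WT, 59.4% in TNF-Tg and 81.8% in tdTomato 1.

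Set against WT, *Edn1* in Pi16-high cells of TNF-Tg was lower by 1.96 on the log2 scale (log2 ratio -1.96, -2.09 to -1.84), which is 3.90-fold. Of 12084 genes with at least 20 UMIs over both sums, 5.31% were at least 2-fold lower and 4.02% at least 2-fold higher in TNF-Tg. Only 0.437% of the genes with at least 100 UMIs had a ratio as low as that of *Edn1*. However, the TNF-Tg level lay inside the range of the libraries without the transgene, 48.0 to 291, and WT was the library apart from the others. In tdTomato 1, 516 of 1504 cells had over 10% mitochondrial UMIs. The median share in Pi16-high cells was 2.85% there, 1.29% in tdTomato 2, 1.14% in WT and 1.16% in TNF-Tg. Ratios against the tdTomato libraries were not repeated with low-quality cells removed. Against tdTomato 1 the TNF-Tg log2 ratio was -0.16 (-0.32 to 0.00), and against tdTomato 2 it was 0.64 (0.12 to 1.21). The transgene and the library therefore cannot be told apart for *Edn1*.

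The gate markers moved only in part with this. Of these, *Myoc* stood at 2436 CPM in Pi16-high cells of WT against 1012 in TNF-Tg, but at 2419 and 2014 in tdTomato 1 and tdTomato 2. *Fndc1* was also lower in TNF-Tg, with 1090 in WT, 755 in TNF-Tg, and 1367 and 1219 in tdTomato 1 and tdTomato 2. *Pi16* was 1702 in WT and 1749 in TNF-Tg, and 2840 and 2399 in tdTomato 1 and tdTomato 2. The tdTomato libraries thus had low *Edn1* with marker levels near or above those of WT.

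Endothelial cells, the textbook source of the peptide, were rare in all 4 sorts. In WT and TNF-Tg the gate held fewer cells than the cluster that the study named endothelial. The 36 endothelial cells of tdTomato 1 had 367 *Edn1* CPM (313 to 427), the 6 of tdTomato 2 had 614 (265 to 1209) and the 6 of TNF-Tg had 252 (141 to 416), all above the Pi16-high level of the same library. The 2 endothelial cells of WT had none. Their share of *Edn1* UMIs was 16.9% in tdTomato 1, 19.5% in tdTomato 2 and 2.45% in TNF-Tg. Resident macrophages had 0.835 CPM in WT, 0.985 in TNF-Tg and no *Edn1* UMI in the tdTomato libraries.

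The second ligand gene, *Edn3*, which codes for the ligand best known from neural crest development, was close to the limit of detection. All 4 of its UMIs were in WT stromal cells, 3 in Cxcl14-high and 1 in Pi16-high cells, and no ratio or test was possible. The 416 Cxcl14-high cells of TNF-Tg had none, which at a limit of 3 UMIs allows up to 0.679 CPM.

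*Ece1*, the converting enzyme gene, was found in all 3 stromal types and was lowest in TNF-Tg in each. In Pi16-high cells its level was 133 CPM (126 to 141) in tdTomato 1, 125 (99.5 to 156) in tdTomato 2, 89.9 (86.2 to 93.8) in WT and 73.7 (67.6 to 80.2) in TNF-Tg. In Cxcl14-high cells it was 153 (133 to 174), 114 (84.8 to 150), 87.5 (79.1 to 96.5) and 41.6 (35.8 to 48.1) in the same order. TNF-Tg was below all 3 libraries without the transgene in both types and in the intermediate cells, where the levels were 99.4, 169, 103 and 54.6. Once thinned, 22.5% (20.3 to 24.7) of Pi16-high cells in WT and 17.8% (14.6 to 21.3) in TNF-Tg had an *Ece1* UMI. In Cxcl14-high cells these shares were 17.7% (14.0 to 21.9) and 14.0% (10.6 to 18.0). The WT and TNF-Tg intervals overlapped in both types. In tdTomato 1 and tdTomato 2 the thinned shares were 31.6% and 29.4% in Pi16-high and 36.2% and 29.9% in Cxcl14-high cells. Over the 4 libraries the stromal types differed by 0.11 ± 0.22 on the log2 scale (edgeR, adjusted p = 0.816), which does not show that they are alike.

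Against WT, the *Ece1* log2 ratio of TNF-Tg was -0.29 (-0.43 to -0.15) in Pi16-high and -1.07 (-1.33 to -0.82) in Cxcl14-high cells, the second a 2.10-fold difference. In Cxcl14-high cells 11.4% of 10640 genes were at least 2-fold lower and 3.90% at least 2-fold higher in TNF-Tg, so a 2-fold lower level was common there. Of the genes with at least 100 UMIs, 29.0% in Pi16-high and 7.65% in Cxcl14-high cells had a ratio as low as that of *Ece1*. The Pi16-high ratio was thus an ordinary one for this pair of libraries. Against tdTomato 1 the ratios were -0.85 and -1.87, and against tdTomato 2 they were -0.77 and -1.45. Along the stromal score, *Ece1* in TNF-Tg was 25.6 CPM in the bin from -3 to -2, 51.8 from -1 to 0 and 72.0 from 0 to 1. In WT it was 107, 95.9 and 99.4 in these bins. The gap between WT and TNF-Tg was thus widest at the Cxcl14 end.

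Other cell types held *Ece1* at very different levels. Endothelial cells had the highest, with 506 CPM in tdTomato 1, 1074 in tdTomato 2, 1181 in the 2 cells of WT and 673 in TNF-Tg. Conventional dendritic cells (cDC1, the cross-presenting type marked by *Xcr1* and *Clec9a*) had 142 (114 to 174) in the 35 cells of WT. Resident macrophages had 13.4 and 12.5 in tdTomato 1 and tdTomato 2, from 1 and 2 UMIs, 6.24 (5.14 to 7.50) in WT and 16.4 (12.2 to 21.7) in TNF-Tg. Their TNF-Tg over WT log2 ratio was 1.40 (0.89 to 1.89), opposite in sign to the stromal cells, a difference that was not tested, with 5.30% of 11203 genes at least 2-fold higher and 5.51% at least 2-fold lower in TNF-Tg. Against tdTomato 2, with its 2 UMIs, the ratio was 0.40 (-1.53 to 3.48). Ccr2 macrophages had 13.9 in WT and 12.2 in TNF-Tg, a log2 ratio of -0.19 (-0.98 to 0.58). Resident and Ccr2 macrophages did not differ past the test in *Ece1* (log2 -0.56 ± 0.41, edgeR adjusted p = 0.422).

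*Ednra*, the receptor of the contractile response, was rare, with 134 UMIs in all. Among stromal cells it was lower in Pi16-high than in Cxcl14-high cells, opposite to *Edn1*. Cxcl14-high cells had 10.5 CPM (5.85 to 17.2) in tdTomato 1, 4.46 (0.541 to 16.1) in tdTomato 2, 6.78 (4.61 to 9.62) in WT and 2.26 (1.08 to 4.16) in TNF-Tg. Pi16-high cells had 0.748, 0, 0.371 and 0 in the same order. In each library the Cxcl14-high level was above the Pi16-high level. *Ednra* was lower in Pi16-high than in Cxcl14-high cells by 4.21 ± 0.55 on the log2 scale (log2 -4.21, edgeR adjusted p = 1.2e-04). The fitted size rests on few UMIs, 7 and 9 in the Pi16-high cells of tdTomato 1 and WT and 15, 2, 31 and 10 in the Cxcl14-high cells of tdTomato 1, tdTomato 2, WT and TNF-Tg.

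TNF-Tg had the lowest *Ednra* in Cxcl14-high cells of the 4 libraries, with a log2 ratio to WT of -1.58 (-2.78 to -0.52) from 10 and 31 UMIs, and to tdTomato 1 of -2.21 (-3.52 to -0.96). The intervals of its level and that of tdTomato 2 overlapped. By share, 7.89% of Cxcl14-high cells had an *Ednra* UMI in tdTomato 1, 1.15% in tdTomato 2, 5.79% in WT and 2.40% in TNF-Tg. After thinning to 3000 UMIs these shares were 1.90%, 1.49%, 1.56% (0.576 to 3.37) and 1.12% (0.306 to 2.84), and the WT and TNF-Tg intervals overlapped. In WT the *Ednra* level was 16.4 in the bin of the stromal score from -3 to -2, 6.67 from -2 to -1 and 0.242 from 2 to 3.

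Outside the stroma, the most *Ednra* UMIs of a gated type were in mast cells. Cells gated by contractile smooth muscle and pericyte genes numbered 4, 1, 0 and 0 in tdTomato 1, tdTomato 2, WT and TNF-Tg. In tdTomato 1, 1 of these 4 had an *Ednra* UMI, and the level in this type could not be judged. The 85 mast cells of WT held 22 UMIs in 20 cells, 169 CPM (106 to 255), the 8 of tdTomato 1 held 2 UMIs and the 9 of TNF-Tg held 1. No *Ednra* UMI was found in resident macrophages or in endothelial cells of any library, and few endothelial cells were there to look at. Mast cells were shallow, with 130481 UMIs over 85 cells in WT.

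*Ednrb* RNA lay mostly in resident macrophages. Resident macrophages, 26.0% of the cells of WT and 7.40% of those of TNF-Tg, held 93.0% and 76.6% of its UMIs, and 64.9% and 90.2% in tdTomato 1 and tdTomato 2. Their level was 1140 CPM (911 to 1410) in the 13 cells of tdTomato 1, 978 (831 to 1144) in the 41 cells of tdTomato 2, 605 (593 to 616) in WT and 960 (926 to 996) in TNF-Tg. Pi16-high stromal cells had 0.321, 0, 1.36 and 0.548, and Cxcl14-high cells 0, 0, 0.437 and 0.226. Neutrophils, which should lack the gene, had 29.0 in WT and 21.6 in TNF-Tg from 41 and 19 UMIs. These UMIs lay in 12 and 4 cells, with up to 16 and 10 in a cell, so they were not an even background. Patrolling monocytes and T cells of TNF-Tg had no *Ednrb* UMI, while T cells of WT had 19.6 CPM, from 12 UMIs in 4 cells. After thinning to 3000 UMIs, 82.1% of resident macrophages in tdTomato 2, 72.5% in WT and 85.2% in TNF-Tg had an *Ednrb* UMI, against 3.31% and 2.34% of neutrophils in WT and TNF-Tg. Outside the macrophages, the 6 endothelial cells of TNF-Tg had 353 CPM (219 to 540) from 21 UMIs and the 36 of tdTomato 1 had 24.3 (12.1 to 43.5). The mast cells of WT had 76.6 (36.8 to 141), from 10 UMIs in 4 of 85 cells. Those of tdTomato 1 and TNF-Tg had none. The median resident macrophage had 6 *Ednrb* UMIs in WT and 7 in TNF-Tg.

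Among macrophages, *Ednrb* followed the resident type. Ccr2 macrophages had 37.1 CPM in WT and 131 in TNF-Tg. In WT 21.7% of them had an *Ednrb* UMI against 3.40% of neutrophils (7.61% and 3.31% after thinning). *Ednrb* was higher in resident than in Ccr2 macrophages by 3.28 ± 0.35 on the log2 scale, a 9.69-fold difference (edgeR adjusted p = 2.1e-05), with 9.19% of genes higher and 5.53% lower in resident macrophages. Only WT and TNF-Tg had enough Ccr2 macrophages for this fit, and tdTomato 2 added resident macrophages. The log2 difference was 2.73 without WT and 4.02 without TNF-Tg. Each of these rests on a single sum of Ccr2 macrophages, which is assumed to vary like the other sums in the fit.

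**Figure D3:**
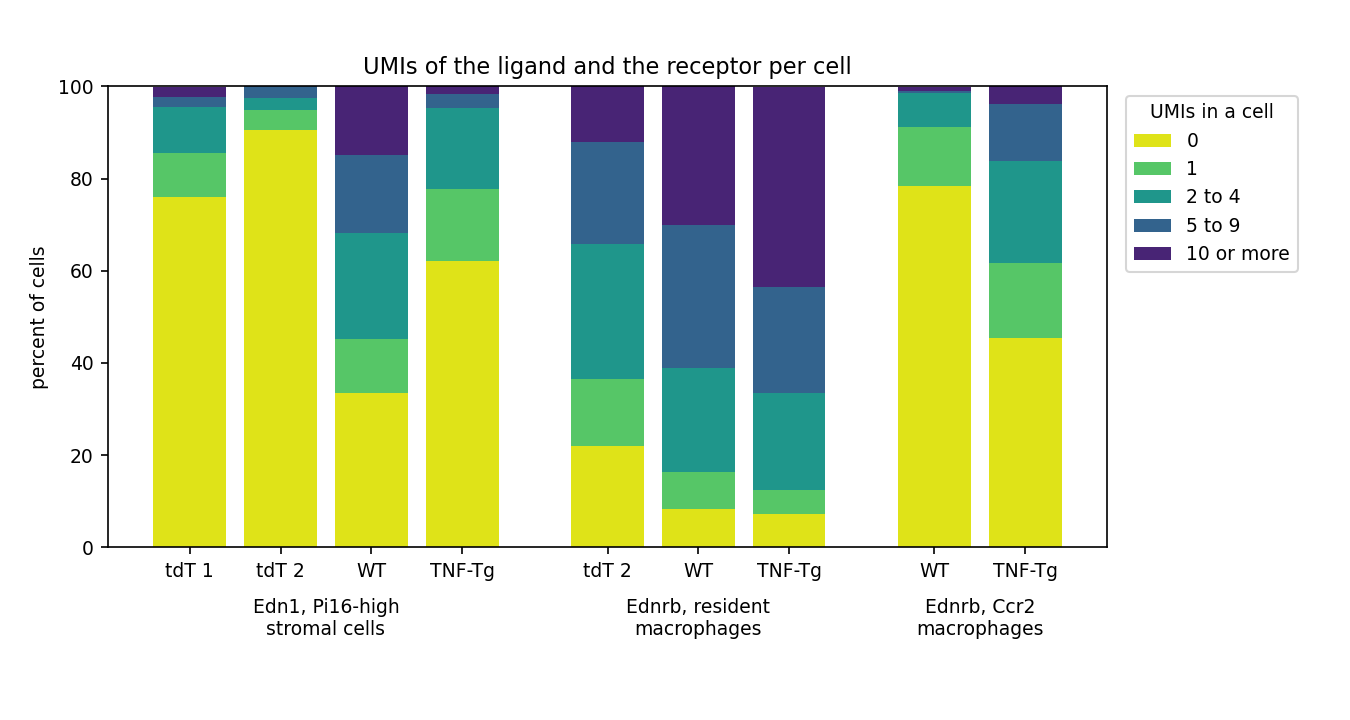
Percent of cells (vertical) with 0, 1, 2 to 4, 5 to 9 or 10 and more UMIs of *Edn1* in Pi16-high stromal cells and of *Ednrb* in resident and Ccr2 macrophages, 1 bar a library with at least 20 such cells (tdT stands for tdTomato). WT has the smallest share of Pi16-high cells without *Edn1* (33.4%), and TNF-Tg the smallest shares of macrophages without *Ednrb* (7.17% of resident and 45.4% of Ccr2 macrophages).

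Set against WT, *Ednrb* in resident macrophages was 1.59-fold higher in TNF-Tg (log2 ratio 0.67, 0.61 to 0.73). Of the genes with at least 100 UMIs, 10.9% had a ratio as high, so its size was not unusual for this pair of libraries. Again WT was the library apart: its level was the lowest of the 4, and TNF-Tg lay close to tdTomato 2, with a log2 ratio of -0.03 (-0.26 to 0.21). In Ccr2 macrophages the TNF-Tg level was 3.52-fold higher (log2 ratio 1.81, 1.48 to 2.16), where 5.80% of 8919 genes were at least 2-fold higher and 9.07% at least 2-fold lower. After thinning, the log2 ratio was 1.13 (0.37 to 1.91), from a random draw separate from that of the thinned shares given below. The gated cells themselves differed, with a median Ccr2 macrophage score of 4.3 in WT and 2.11 in TNF-Tg and a median inflammatory monocyte score of 0 and 0.56, whose part in the ratio was not tested. The thinned share of Ccr2 macrophages with an *Ednrb* UMI was 7.61% in WT and 31.2% in TNF-Tg. The remaining macrophages had 192 in WT and 428 in TNF-Tg, and inflammatory monocytes 2.16 and 14.5. In TNF-Tg 7.01% of inflammatory monocytes had an *Ednrb* UMI against 1.72% of neutrophils, but 2.07% and 2.34% after thinning.

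The gap was also present among macrophages of like resident marker score. *Ednrb* in WT was 37.4 CPM in the bin from 0.5 to 1, 411 from 1.5 to 2 and 674 from 2.5 to 3. In TNF-Tg it was 149, 615 and 1082 in these bins. TNF-Tg was above WT in all 6 bins that both libraries filled with at least 20 cells. For Ccr2 macrophages the direction depended on how cells were grouped. In clusters made with Seurat in place of gates, the cluster named Ccr2 macrophage gave a log2 ratio of -0.72 (-0.87 to -0.58). In that cluster 53.7% of the WT cells but 1.47% of the TNF-Tg cells lay in the resident gate, with median resident scores of 1.57 and 0.53.

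**Figure D4:**
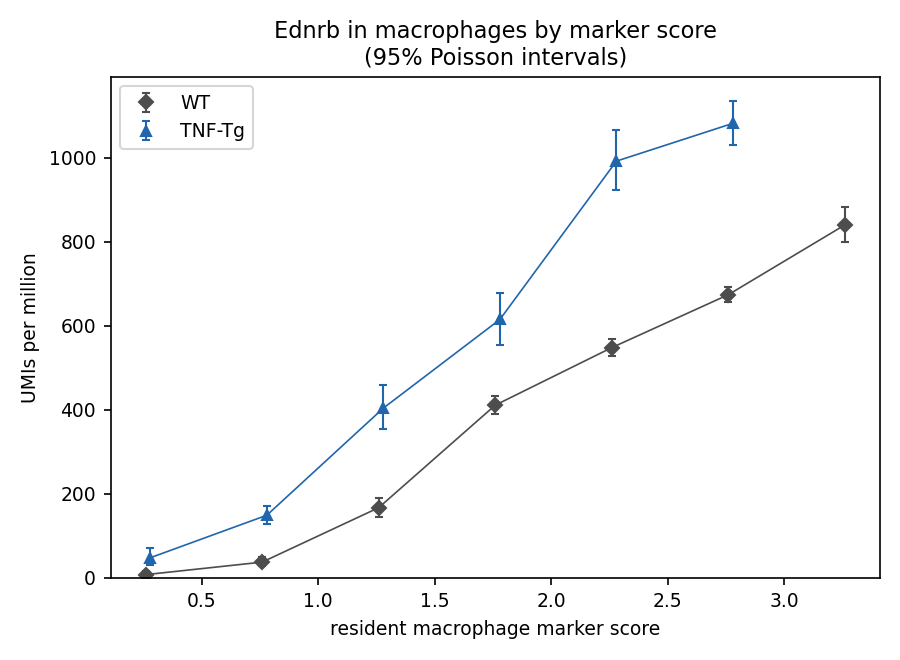
*Ednrb* CPM (vertical) in macrophages binned by the resident marker score (horizontal) for WT and TNF-Tg, with 95% Poisson intervals and at least 20 cells a bin. The level climbs with the score in both libraries, to 840 in the highest bin of WT and 1082 in the highest bin of TNF-Tg, and TNF-Tg is above WT in each shared bin.

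Among stromal cells and macrophages, ligand and receptor RNA were thus found mostly in different cell types. In WT, 66.6% of Pi16-high cells had a ligand UMI, 2.58% a receptor UMI and 1.65% both. In TNF-Tg these shares were 37.8%, 0.749% and 0.562%. Of the 39 Pi16-high cells of WT with a receptor UMI, 25 also had a ligand UMI. The low share with both thus reflects how rarely the receptor was found. Of the resident macrophages, 91.8% in WT and 92.8% in TNF-Tg had a receptor UMI while 0.910% and 0.398% had a ligand UMI. Endothelial cells were few and held both genes: of the 6 in TNF-Tg, 5 had an *Edn1* UMI and 3 an *Ednrb* UMI. Whether the peptide reached the receptors was not measured.

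**Figure D5:**
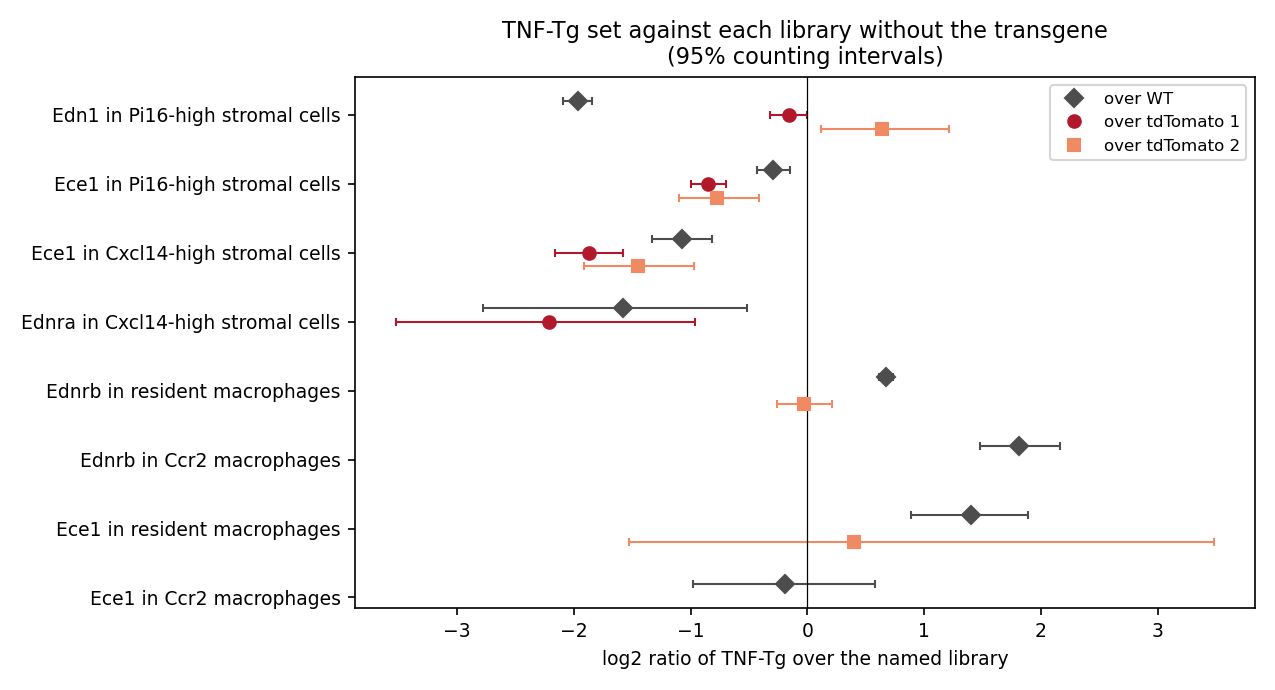
Log2 ratio of TNF-Tg over each library without the transgene (horizontal) for the members and cell types shown (vertical), with 95% counting intervals. Each ratio has at least 20 UMIs over both libraries together and at least 20 cells in each. *Ece1* in stromal cells is below 0 against each library, whereas *Edn1* in Pi16-high cells runs from -1.96 against WT to 0.64 against tdTomato 2 and *Ednrb* in resident macrophages from 0.67 to -0.03.

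The rest of the pathway was followed in 34 further genes: proteases, G proteins, phospholipase C and calcium channels, kinases and desensitizing proteins. Of 32 tested between the stromal types, 4 were higher and 6 lower in Pi16-high cells (31.2% called, against 14.8% of all genes), with a median log2 difference of -0.13 beside 0.01 for all genes. Lower in Pi16-high cells were the inositol trisphosphate receptor gene *Itpr1* (log2 -1.90 ± 0.25), the phospholipase gene *Plcb4* (-1.06 ± 0.21), the protein kinase C gene *Prkcb* (-2.32 ± 0.36), neprilysin (*Mme*, -1.33 ± 0.27), which degrades endothelin, the arrestin gene *Arrb1* (-0.63 ± 0.19) and *Ece2*, a second converting enzyme. Higher were *Prkca* (1.19 ± 0.24), *Itpr3* (1.23 ± 0.29), the kinase gene *Rock2* (0.78 ± 0.15) and *Rhoa* (0.47 ± 0.14). *Ece2* had 24.6, 7.87 and 4.07 CPM in Cxcl14-high cells of tdTomato 2, WT and TNF-Tg but none in tdTomato 1, and 0.206 in Pi16-high cells of WT with none in the other libraries.

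Between resident and Ccr2 macrophages 2 of 32 genes were higher and 4 lower in the resident type, 18.8% against 14.7% of all genes. *Pcsk7*, a proprotein convertase, was higher by 1.02 ± 0.24 and *Rock2* by 0.80 ± 0.21. *Plcb2*, the phospholipase of blood cells, was lower (log2 -2.83 ± 0.56), as were *Itpr1* (-2.89 ± 0.35), *Itpr3* (-2.76 ± 0.88) and *Gnas* (-0.63 ± 0.20).

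In TNF-Tg over WT, no pathway gene outside the members was at least 2-fold higher in the 4 main types. In Pi16-high cells 3 of 30 genes were at least 2-fold lower, in Cxcl14-high cells 6 of 31, in resident macrophages 2 of 28 and in Ccr2 macrophages 6 of 28. Of all genes, 5.31%, 11.4%, 5.51% and 9.07% were at least 2-fold lower in these types. The median log2 ratios of these genes were -0.26, -0.54, -0.29 and -0.38, beside -0.03, -0.18, 0.06 and 0.00 for all genes. In Cxcl14-high cells the 6 were *Gnaq*, *Plcb4*, *Itpr1*, *Prkcb*, *Prkce* and *Mcpt4*. Those of the other types are counted but not named here, apart from *Mcpt4* in Pi16-high cells. The list therefore does not show that such lower levels are particular to Cxcl14-high cells. *Gnaq*, the G protein of the contractile response, had 59.5 CPM in WT and 27.8 in TNF-Tg, with 90.6 and 55.8 in tdTomato 1 and tdTomato 2. *Plcb4* had 41.8 and 17.6, with 46.7 and 29.0 in the tdTomato libraries, and *Itpr1* 35.2 and 11.8, with 33.4 and 46.9. *Prkcb* had 14.4 and 6.11, with 21.6 and 13.4 in the tdTomato libraries, and *Prkce* 17.3 and 8.37, with 20.9 and 17.9. *Mcpt4* had 59.7 and 19.5, but 0.697 and 11.2 in tdTomato 1 and tdTomato 2, both below TNF-Tg. These 6 genes were named for their low level in TNF-Tg against WT, so that part of the order is built in. *Mcpt4* and *Cma1*, which code for mast cell chymases able to cut big endothelin, had 33377 and 26640 CPM in mast cells of WT. In Pi16-high cells *Mcpt4* had 41.9 CPM in WT and 18.6 in TNF-Tg, but 1.28 and 10.8 in tdTomato 1 and tdTomato 2. The number of mast cells was 8, 0, 85 and 9 in tdTomato 1, tdTomato 2, WT and TNF-Tg, and its part in these ratios was not tested.

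The genes whose levels were most like those of *Edn1* over 29 sums of cell type by library, each of at least 50 cells, were *Adra1b*, the alpha-1B adrenergic receptor gene, with Pearson r = 0.97, and *Sema3e*, *Islr2*, *Angptl7* and *Stmn4*, each with r = 0.95. *Ece1* was most like *Ybx3* (r = 0.94), *Mprip*, *Nfix*, *Dapk1* and *Ust*. *Ednrb* was most like *Cela1* and the scavenger receptor gene *Stab1* (both r = 0.97), *Pf4*, *Cbr2* and *Ms4a7*, genes of resident tissue macrophages. These values describe 10397 genes over sums that share libraries, on log2(CPM + 5), and were not tested. Endothelial cells, a further source of *Edn1* and *Ece1*, did not enter, since no library held 50 of them. *Edn3* and *Ednra* had too few UMIs for this. The mouse *Tnf* gene, which is distinct from the human transgene, was 14.1 CPM in neutrophils of WT and 72.6 in those of TNF-Tg. It was at most 0.214 in Pi16-high cells of any library. Between WT and TNF-Tg the direction differed between leukocytes: inflammatory monocytes had 3.25 (3 UMIs) and 12.5, but T cells 44.1 and 18.7. Cd209a dendritic cells had 24.4 and 11.8. In tdTomato 1 and tdTomato 2, inflammatory monocytes had 47.7 and 9.88, from 8 and 2 UMIs, and Cd209a dendritic cells 321 and 10.8. In inflammatory monocytes and Cd209a dendritic cells TNF-Tg thus lay inside the range of the libraries without the transgene. For the dendritic cells this rests on 1 UMI in the 10 cells of tdTomato 2. T cells had 63.3 and 90.3 in the tdTomato libraries, and their 10 and 30 neutrophils had 0, with intervals up to 103 and 52.4. TNF-Tg thus lay below this range in T cells and above it in neutrophils.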

How the data were processed

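Single cells of 4 libraries, 3 mice pooled in each, were profiled by 10x 3' sequencing. The authors deposited raw UMI counts per gene and cell, filtered to called cells. The submitters' processing notes list mm10, Cell Ranger 3.1 and 3.1.0 and Seurat 4.0.3, while per the file headers the matrices came from Cell Ranger 3.1.0 (tdTomato 1) and 6.0.1 (the other libraries). The annotation release is not given in the sources used here. Such a difference in version or annotation could shift levels of genes between tdTomato 1 and the others.

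The members and gene lists were chosen with earlier results of these data known. Cells were gated by mean log-normalized marker scores, with cuts set after the score distributions were seen: a stromal score of 1.5, a lead of 0.5 between the stromal lists, and a resident score of 1.5. Scrublet, run in scanpy 1.11.5, called 4, 0, 137 and 74 doublets in tdTomato 1, tdTomato 2, WT and TNF-Tg, which were kept and removed in an alternative. Counts were summed over cells per type and library and scaled to 1000000. Ratios of TNF-Tg over WT were given for at least 20 UMIs in the pair, against a fold of 2, and a count of 0 was given a limit of 3 UMIs. Cells were thinned to 3000 UMIs at random, in separate draws for shares and for ratios. The 13 sums of at least 20 cells entered 1 edgeR 4.0.16 quasi-likelihood fit (TMM scaling, library as block, 6 residual degrees of freedom, 11926 genes, Benjamini-Hochberg adjustment, threshold 0.05). Both scripts were tested on simulated data. Library totals were 14256192, 2357031, 68773605 and 37557627 UMIs. The genes named were the members, the 5 genes most like each member, *Tnf* and the pathway genes past the threshold (at most 10 a comparison). Pathway genes past the fold were named for Cxcl14-high cells and, apart from *Mcpt4* in Pi16-high cells, only counted in the other types. Alternatives were stricter gates, Seurat 5.3.0 clusters, doublets or low-quality cells removed, mean over cells, thinning, DESeq2 1.42.0 and its size factors, no filter, no block, and each library left out. Replacing WT by each tdTomato library was added after the data were seen.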

Additional observations from a re-analysis of the deposited data

How the results depend on the processing

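Of 47 alternative values of the TNF-Tg over WT ratios, 37 moved by less than the counting interval. On the log2 scale, *Edn1* in Pi16-high cells was -1.66 with stricter gates and -1.74 as a mean over cells. *Ece1* in Pi16-high cells was -0.12 after thinning, and with stricter gates *Ece1* and *Ednra* in Cxcl14-high cells were -1.39 and -2.95. *Ednrb* in resident macrophages was 0.47 in Seurat clusters, 0.56 as a mean over cells and 0.60 after thinning. In Ccr2 macrophages *Ednrb* was 1.13 after thinning and reversed to -0.72 in Seurat clusters, where the cells grouped were others, as given above. With tdTomato 1 in place of WT, a choice made after the data were seen, *Edn1* was -0.16 and *Ece1* was -0.85 in Pi16-high and -1.87 in Cxcl14-high cells. With tdTomato 2 in place of WT, *Edn1* reversed to 0.64 and *Ednrb* in resident macrophages to -0.03, while *Ece1* was -0.77 in Pi16-high cells, -1.45 in Cxcl14-high cells and 0.40 in resident macrophages. The cause of these shifts was not tested.

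In the fits, the number of genes called between the stromal types was 1766, and 633 without the library block, and between the macrophage types 1756, and 427 without it. Without the block *Mme* (-1.62) and *Plcb4* (-0.92) no longer passed between the stromal types. Outside the members, only *Mme*, *Plcb4* and *Itpr1* were followed in the alternatives. The other named pathway genes were not checked there. Among these, *Gnas* and *Itpr3* lay near the threshold between the macrophage types in the main fit (edgeR adjusted p = 0.0493 and 0.0471). Without 1 library the macrophage count ran from 1095 (without WT) to 1577, with 1151 without TNF-Tg. The *Ece1* difference between stromal types, which did not pass the test, ran from -0.05 to 0.25 without 1 library. That between resident and Ccr2 macrophages ran from -1.18 without TNF-Tg, where the edgeR adjusted p was 0.0369, to 0.11 without WT. Without WT or TNF-Tg, 1 sum of Ccr2 macrophages is left and is assumed to vary like the other sums. *Edn1* between stromal types stayed at 6.01 (no block) to 9.59 (stricter gates) and *Ednrb* between macrophages at 2.73 to 4.02, past the threshold in each alternative. The library block paired the cell types of a library, whereas WT and TNF-Tg, with 1 library each, could not be paired. No ratio was given for *Edn1* and *Edn3* in Cxcl14-high or for *Ednra* and *Edn3* in Pi16-high cells, which had under 20 UMIs or none in TNF-Tg. Depth limits *Edn3* and *Ednra* most.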
